A study of Mus musculus with 84 samples.

Results

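Striatal projection neuron markers are genes whose transcripts mark the principal, GABA-releasing neurons of the striatum. The 9 genes Drd1, Drd2, Adora2a, Ppp1r1b, Rgs9, Penk, Tac1, Pde10a and Gpr6 were followed here in neuronal nuclei of the frontal cortex. All 9 were matched by symbol to an Ensembl gene among the 55401 gene IDs counted, and 8 passed the filter on low counts that 17941 genes passed. Adora2a did not pass it. The genes were selected on the level of Rgs9 and the sum of the markers, which were high 7 days after the drug, so the values of the 7 days mice against vehicle are given as a description, with no test of a marker. The question was whether the markers were high in the same mice and in the same proportion to one another.

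The mice were of the strain 129S6/SvEvTac and 12 weeks old, and the tissue was frontal cortex anterior to bregma +1 mm. Mice of the vehicle group (VEH) received the vehicle alone. The others received DOI (2,5-dimethoxy-4-iodoamphetamine), a psychedelic drug that activates serotonin 2A receptors, and were examined 24 h, 48 h or 7 days later. No transgene or deletion is named in the labels. Nuclei carrying NeuN, a protein of neuronal nuclei, were sorted, and RNA of 4 mice per group was analysed here, with 2 libraries per mouse whose counts were summed. The chromatin samples of the study were not analysed here.

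Projection neurons of the striatum form a direct and an indirect output pathway. Direct-pathway neurons carry the D1 dopamine receptor (Drd1) and make substance P (from Tac1). Indirect-pathway neurons carry the D2 dopamine receptor (Drd2), the adenosine receptor Adora2a and the constitutively active receptor Gpr6, and make enkephalin (from Penk). Both kinds carry DARPP-32 (Ppp1r1b), a phosphatase inhibitor switched on by protein kinase A, the phosphodiesterase Pde10a, and Rgs9, which shortens the signal of inhibitory G proteins. D1 receptors raise cAMP, while D2 receptors lower it. Several of these genes are not restricted to the striatum: Penk and Tac1 are also made by cortical interneurons, and Drd1 and Ppp1r1b by deep-layer cortical projection neurons. In bulk RNA of sorted nuclei, more cells of a type and more RNA per cell cannot be told apart.

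RefSeq promoter entries (build GRCm38.p6) were found for 6 of the 9 markers: Drd1, Drd2, Rgs9, Tac1, Pde10a and Gpr6. The stretches before the gene are printed for 4 genes: Gpr6 and Tac1, which hold letters of a cAMP response element, Rgs9, the gene that led to the choice, and Drd1, a dopamine receptor gene that fell at 24 h. Each is written 5′ to 3′ on the gene's strand, and capitals mark the motif found.
Gpr6, chr10:41072291-41072540, minus strand: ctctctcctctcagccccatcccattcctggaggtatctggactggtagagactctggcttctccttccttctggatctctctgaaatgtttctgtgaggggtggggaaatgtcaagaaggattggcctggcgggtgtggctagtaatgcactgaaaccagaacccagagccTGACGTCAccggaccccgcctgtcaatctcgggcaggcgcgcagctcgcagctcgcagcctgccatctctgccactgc
Tac1, chr6:7554811-7554878, plus strand: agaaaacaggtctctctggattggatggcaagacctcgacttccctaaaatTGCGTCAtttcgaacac
Rgs9, chr11:109298182-109298431, minus strand: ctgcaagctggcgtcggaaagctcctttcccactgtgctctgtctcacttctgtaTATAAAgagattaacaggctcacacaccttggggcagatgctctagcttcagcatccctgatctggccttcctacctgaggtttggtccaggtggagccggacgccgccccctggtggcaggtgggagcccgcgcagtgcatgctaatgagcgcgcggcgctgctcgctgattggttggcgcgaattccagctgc
Drd1, chr13:54055706-54055908, minus strand: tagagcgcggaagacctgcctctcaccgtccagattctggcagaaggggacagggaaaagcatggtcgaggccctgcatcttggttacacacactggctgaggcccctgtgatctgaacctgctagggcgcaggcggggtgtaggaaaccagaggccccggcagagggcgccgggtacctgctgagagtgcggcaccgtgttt
The letters TGACGTCA, the palindrome bound by CREB, the factor that answers to cAMP, stood in Gpr6 with their first base 78 bases before the RefSeq start. They were found, on either strand, in 1.55% of all 32851 promoter windows of 250 bases. The letters TGCGTCA, known from the enkephalin gene's own cAMP response element, stood in Tac1 199 bases before its RefSeq start, and in 1.75% of all windows. That start lies inside the gene as the files count it, so the Tac1 stretch is printed only up to the gene's first base, which is 17 bases from the letters. The core TGACG, which overlaps the palindrome and, on the other strand, the Tac1 letters, was present in the Gpr6 and Tac1 windows and in 17.8% of all. The letters TATAAA stood 195 bases before the start in Rgs9 and in 12.4% of all windows. In the windows of Drd1, Drd2 and Pde10a none of these letters were found. A match is a description of the letters only.

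Total counts per mouse were 5834248 to 12354785, and a level of 3 counts, the least that can be called detected, lay between 0.254 and 0.502 CPM, the count relative to the TMM-scaled total of the mouse. Molecules were not tagged before amplification, so this floor covers counting error alone. The vehicle mice, at 9151680 counts or more, were deeper than all mice at 24 h and 48 h, so depth and group cannot be told apart there. In the file headers 24 h mouse 1, 48 h mouse 2 and 7 days mouse 2 carry mouse number 6, and the numbers of the labels are used here. The labels do not say whether mice of a number in different groups are related. The mice at 7 days did not stand together. On the first principal component of all genes (46.0% of the variance), 7 days mice 1 and 3 lay at -87.5 and -82.9, among the vehicle mice (-94.6 to -69.0). Mice 2 and 4, at 52.1 and 64.8, lay among the 24 h and 48 h mice (22.0 to 66.2). The nuclei held the cortical markers: Slc17a7, the vesicular glutamate transporter of cortical neurons, was at 129 to 171 CPM in vehicle mice, and endothelial Cldn5 was listed at 0 in all 4.

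In vehicle mice the markers differed widely in level per kilobase of exon. Penk was highest at 100 ± 35.9 CPM per kilobase (SD, n = 4). Tac1 (13.6 ± 7.04), Ppp1r1b (13.3 ± 4.71) and Drd1 (11.2 ± 1.39) followed within one another's spread. Pde10a was at 6.79 ± 3.36 CPM per kilobase, Gpr6 at 3.91 ± 1.23 and Rgs9 at 1.03 ± 0.222. Drd2 (0.241 ± 0.149) and Adora2a (0.0371 ± 0.0743) came last. At 7 days Penk again had the highest mean, at 310 ± 202 CPM per kilobase. Tac1 came next, at 41.2 ± 32.3, a place that rests on mice 2 and 4 (80.0 and 55.2), since in mice 1 and 3 (17.3 and 12.1) it was below Ppp1r1b (24.1 and 16.6). Tac1, Drd1 (23.4 ± 9.84), Gpr6 (20.8 ± 14.7), Ppp1r1b (20.3 ± 4.78), Pde10a (18.7 ± 11.8) and Rgs9 (11.0 ± 10.2) were not separated beyond their spread there. The levels of Ppp1r1b and Penk are uncertain, because 15.7% and 14.3% of their exon bases overlap a gene on the other strand and counting did not use strand.

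Of the direct-pathway markers, Drd1 (chromosome 13, 54051183 to 54055705) was at 37.1, 45.8, 43.8 and 35.4 CPM in vehicle mice 1 to 4. At 24 h it was at 23.9, 29.0, 19.9 and 14.1 CPM, and at 48 h at 27.4, 37.2, 42.8 and 38.2 CPM. At 7 days the mice had 73.4, 126, 42.1 and 97.4 CPM. All 4 mice at 24 h were thus below all vehicle mice, the 48 h mice overlapped them, and mouse 3 at 7 days was within the vehicle range while the other three were above it. Against vehicle, Drd1 fell by 0.90 on the log2 scale at 24 h (SE 0.28, edgeR adjusted p = 0.0272), and its log2 fold change at 48 h was -0.16 (SE 0.28, adjusted p = 0.695). The call at 24 h was lost without vehicle mouse 1, 2 or 3 or 24 h mouse 3 or 4 (adjusted p 0.0512 to 0.0878). It was also lost with total counts as the only scaling (adjusted p = 0.0518).

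Tac1 (chromosome 6, 7554879 to 7565834), the substance P precursor, was at 79.7, 47.5, 27.02 and 31.1 CPM in vehicle mice 1 to 4 and at 11.7, 56.4, 40.2 and 63.0 CPM at 24 h. It was at 56.5, 83.7, 82.1 and 57.8 CPM at 48 h, and at 58.8, 272, 41.1 and 188 CPM at 7 days. Mice 2 and 4 at 7 days were above every other mouse, while mice 1 and 3 were within the vehicle range. The log2 fold changes were -0.11 at 24 h (SE 0.52, adjusted p = 0.891) and 0.59 at 48 h (SE 0.52, adjusted p = 0.395). The value at 24 h turned positive without vehicle mouse 1 (0.28) or 24 h mouse 1 (0.20) and with total counts only (0.02).

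Among the indirect-pathway markers, Drd2 (chromosome 9, 49340627 to 49408177) was low. Vehicle mice 1 to 4 had 0.0944, 0.796, 0.590 and 0.973 CPM from 1 to 10 counts each, and the 24 h mice had 0, 1.49, 1.14 and 0.592 CPM. At 48 h the values were 0, 6.70, 0.889 and 3.46 CPM, and at 7 days 3.05, 15.5, 1.98 and 6.16 CPM. Mice 2 and 3 at 24 h, mice 2 and 4 at 48 h and all 4 mice at 7 days were above the vehicle mice, and 7 days mouse 2 held 138 counts. Drd2 passed the filter on low counts only through the 7 days mice: 4 mice past 1.26 CPM were needed, all 4 at 7 days were past it, and only 3 of the other 12 were. The 24 h and 48 h tests of Drd2 therefore rest on a gene kept by the group that led to the choice. The log2 fold change was 0.40 at 24 h (SE 1.05, adjusted p = 0.804) and 2.14 at 48 h (SE 1.00, adjusted p = 0.11), neither past the threshold. The 48 h value rested on mouse 2, without which it was 1.25. It was past the threshold without 48 h mouse 1 (2.55, adjusted p = 0.0435) and with no filter on low counts (2.09, adjusted p = 0.0316).

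Adora2a (chromosome 10, 75316877 to 75334784), the adenosine receptor, was absent from the counts of 9 of the 16 mice. In vehicle it had 4 counts in mouse 2 and 0 in the others, and at 24 h 5 counts in mouse 4 and 0 in the others. At 48 h mice 1 to 4 had 1, 13, 0 and 4 counts. At 7 days mouse 2 had 57 counts (6.39 CPM) and mouse 4 had 14 (1.96 CPM), while mice 1 and 3 had 0 counts. In both of those mice each library held Adora2a, with 38 and 19 counts in mouse 2 and 5 and 9 in mouse 4. The 3 mice with more than 5 counts were thus 48 h mouse 2 and 7 days mice 2 and 4.

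Penk (chromosome 4, 4133531 to 4138819), the enkephalin precursor, was at 237, 182, 102 and 135 CPM in vehicle mice 1 to 4 and at 67.9, 128, 161 and 99.9 CPM at 24 h. It was at 155, 273, 111 and 245 CPM at 48 h, and at 332, 941, 186 and 570 CPM at 7 days. At 7 days mice 1, 2 and 4 were above the vehicle mice and mouse 3 was not. The log2 fold changes were -0.52 at 24 h (SE 0.41, adjusted p = 0.356) and 0.26 at 48 h (SE 0.40, adjusted p = 0.656).

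Gpr6 (chromosome 10, 41069977 to 41072285), the receptor of indirect-pathway neurons, was at 8.50, 7.62, 3.73 and 8.08 CPM in vehicle mice 1 to 4 and at 7.92, 3.27, 10.8 and 2.37 CPM at 24 h. The 48 h mice split widely, with 2.17, 22.9, 2.08 and 16.4 CPM, and the 7 days mice had 21.3, 70.9, 12.1 and 44.2 CPM. All 4 mice at 7 days were above the vehicle mice, while at 48 h mice 2 and 4 were above and mice 1 and 3 below them. The log2 fold changes were -0.20 at 24 h (SE 0.68, adjusted p = 0.852) and 0.64 at 48 h (SE 0.67, adjusted p = 0.493). Without 48 h mouse 2 the latter was -0.01.

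Of the markers shared by both pathways, Ppp1r1b (chromosome 11, 98348404 to 98357796), which encodes DARPP-32, was at 34.5, 59.1, 27.6 and 35.0 CPM in vehicle mice 1 to 4. It was at 19.2, 14.3, 25.4 and 16.8 CPM at 24 h and at 8.69, 46.5, 17.5 and 30.7 CPM at 48 h. At 7 days it was at 70.5, 72.6, 48.5 and 46.3 CPM. The 24 h mice were all below the vehicle mice, and at 7 days mice 1 and 2 were above them. Ppp1r1b fell by 1.04 on the log2 scale at 24 h (SE 0.37, edgeR adjusted p = 0.0484), and its log2 fold change at 48 h was -0.60 (SE 0.37, adjusted p = 0.224). The 24 h call was close to the threshold. It was lost with RLE factors (adjusted p = 0.051), with total counts only (0.0705), with library 2 alone (0.0813) and with the mouse number as a block (0.0784). Leaving out vehicle mouse 1, 2 or 4 or 24 h mouse 1, 2 or 4 also ended it (adjusted p 0.0723 to 0.168).

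Rgs9 (chromosome 11, 109225355 to 109298129), the regulator of G protein signalling, was at 6.61, 4.78, 8.25 and 6.62 CPM in vehicle mice 1 to 4. It was at 8.53, 14.0, 11.3 and 20.4 CPM at 24 h and at 9.85, 40.7, 14.5 and 25.1 CPM at 48 h. At 7 days mouse 2 (127 CPM) and mouse 4 (126 CPM) were far above mouse 1 (18.6 CPM) and mouse 3 (8.99 CPM). Every mouse of the 3 DOI groups was above every vehicle mouse. At 24 h the log2 fold change was 1.04 and did not pass the test (SE 0.63, adjusted p = 0.231), although it did with 7 days mice 2 and 4 left out of the fit (1.03, adjusted p = 0.0475) and with no filter on low counts (1.00, adjusted p = 0.0418). At 48 h Rgs9 rose by 1.77 (SE 0.63, edgeR adjusted p = 0.0414). The 48 h call was lost without any single vehicle mouse and without 48 h mouse 2, 3 or 4 (adjusted p 0.0505 to 0.149), with library 1 alone (adjusted p = 0.07) and with the mouse number as a block (adjusted p = 0.0659). Without 48 h mouse 2 the log2 fold change was 1.33.

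Pde10a (chromosome 17, 8525372 to 8986648), the striatal phosphodiesterase, was at 48.9, 58.4, 144 and 98.1 CPM in vehicle mice 1 to 4 and at 132, 104.5, 71.6 and 84.7 CPM at 24 h. It was at 96.9, 191, 108 and 114 CPM at 48 h, and at 126, 358, 94.9 and 384 CPM at 7 days. Mouse 2 at 48 h and mice 2 and 4 at 7 days were above the vehicle mice. The log2 fold changes were 0.17 at 24 h (SE 0.40, adjusted p = 0.783) and 0.55 at 48 h (SE 0.41, adjusted p = 0.314).

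**Figure D1:**
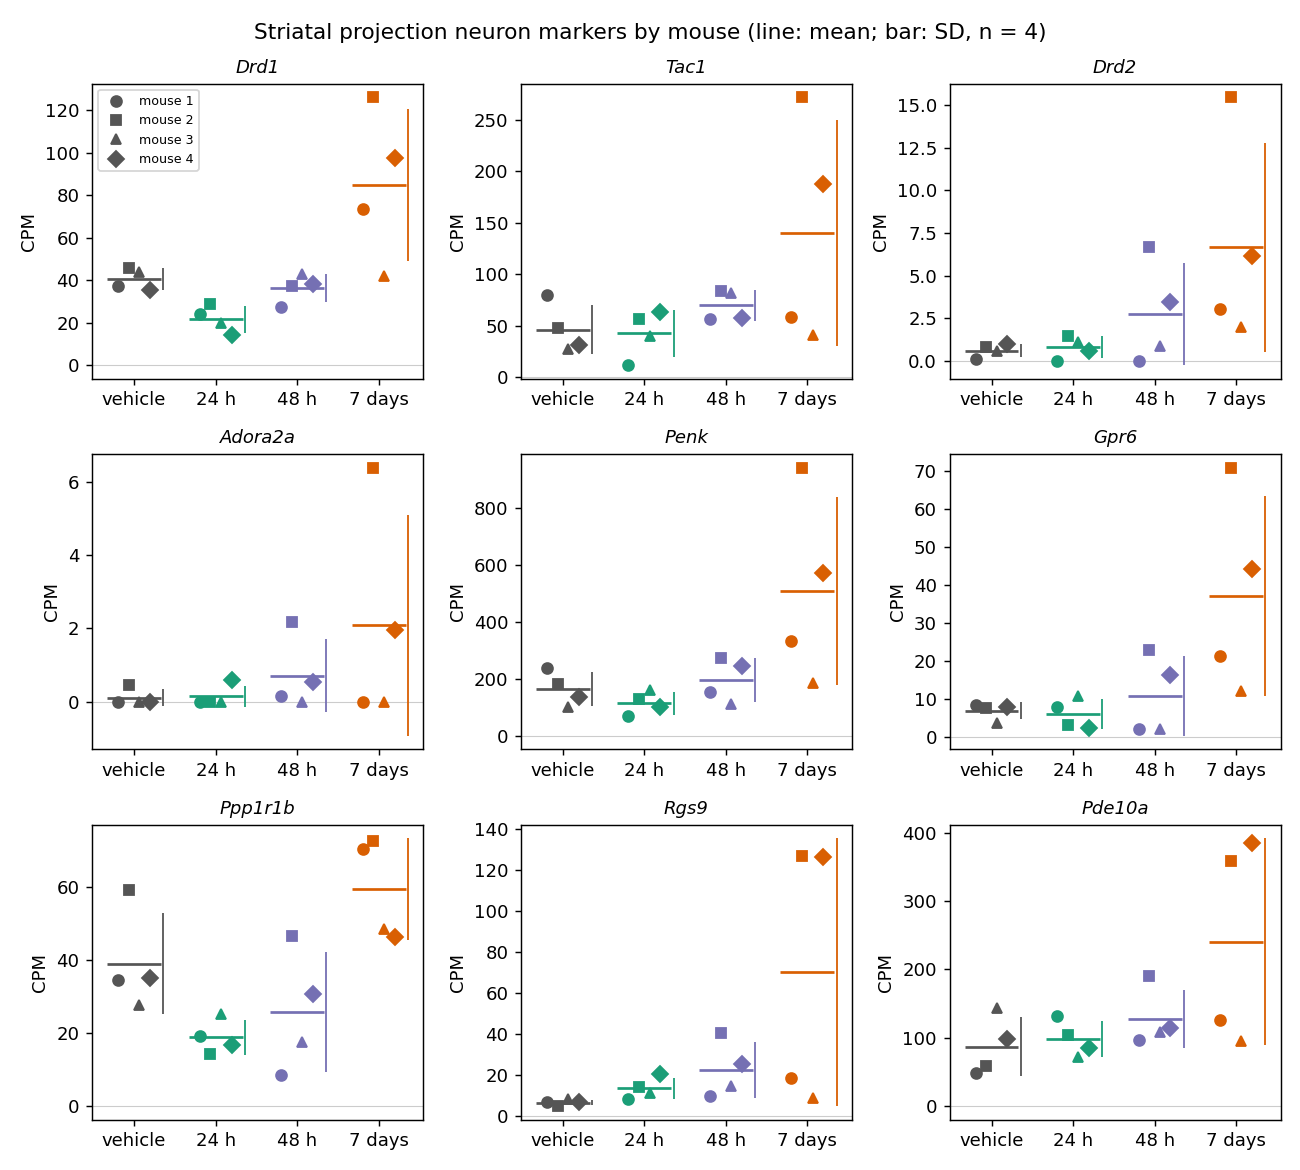
Level of each of the 9 markers in CPM (y axis, linear) in each mouse of the vehicle, 24 h, 48 h and 7 days groups (x axis). Symbols stand for mouse numbers, horizontal lines for group means and vertical bars for 1 SD (n = 4); mouse 2 at 7 days, the orange square, is the highest mouse for 8 of the 9 genes, and for Pde10a mouse 4 is.

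Over the 8 markers tested, 0 rose and 2 fell at 24 h (Drd1 and Ppp1r1b), where 13.8% of all 17941 genes rose and 10.4% fell. At 48 h 1 rose (Rgs9) and 0 fell, against 16.8% and 13.3% of all genes. The median log2 fold change of the markers was -0.16 at 24 h, with 3 of 8 above 0, and 0.57 at 48 h, with 6 of 8 above 0. Without Drd2, which passed the filter through the 7 days mice, it was -0.20 at 24 h (2 of 7 above 0) and 0.55 at 48 h (5 of 7). The medians over all genes were 0.03 and 0.02. Without overlap between 4 mice and 4 vehicle mice, 1 marker was higher (Rgs9) and 2 were lower at 24 h, against 18.5% and 17.2% of all genes, and 1 was higher (Rgs9) and 0 lower at 48 h, against 19.2% and 19%. Both comparisons share the vehicle mice with each other and with the comparison that led to the choice. The samples are separate mice, which the labels number within each group.

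Between 48 h and 24 h, which holds no mouse of the vehicle or 7 days groups, no marker passed the test, and 0% of all genes did. By edgeR 338 of all genes had an unadjusted p below 0.05, among them Drd1 (log2 fold change 0.75, SE 0.28, unadjusted p = 0.0158, adjusted p = 1). DESeq2 also called 0 genes. All 8 markers were above 0 at 48 h relative to 24 h, with log2 fold changes of 0.38 (Pde10a) to 1.75 (Drd2) and a median of 0.74, while 50.3% of all genes were above 0. Without Drd2, which passed the filter through the 7 days mice, the other 7 lay at 0.38 to 0.83 with a median of 0.73. None of the 8 had groups without overlap between 48 h and 24 h, compared with 1.96% of all genes.

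At 7 days the markers' log2 fold changes against vehicle were 0.61 for Ppp1r1b, 1.06 for Drd1, 1.46 for Pde10a, 1.59 for Tac1, 1.63 for Penk, 2.41 for Gpr6, 3.41 for Rgs9 and 3.42 for Drd2. Their median was 1.61, against 0.02 over all genes. These values chose the genes and are a description. The test called 0% of all genes in this comparison, and 2.81% of all genes were higher without overlap between the 4 mice and the 4 vehicle mice, among them Drd2, Rgs9 and Gpr6. With mice 2 and 4 left out, the median over the markers was 0.64.

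**Figure D2:**
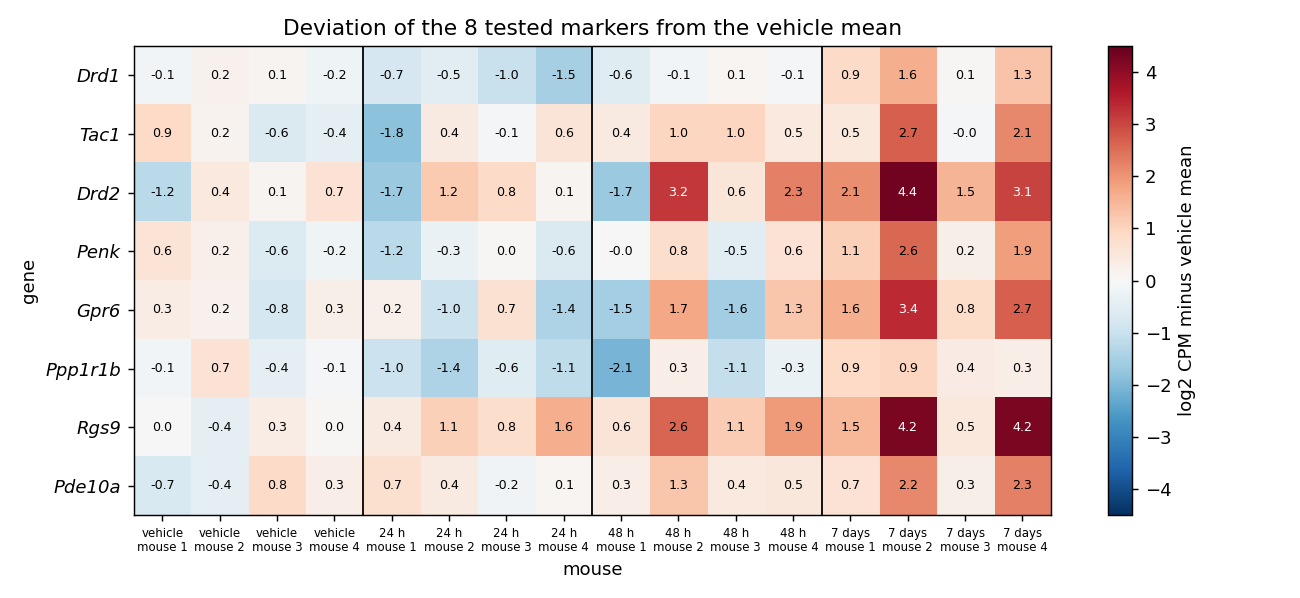
Log2 CPM minus the vehicle mean (colour and printed value) for the 8 tested markers (rows) in the 16 mice (columns). Mice 2 and 4 at 7 days carry the darkest red columns, with median deviations of 2.63 and 2.21, followed by 48 h mouse 2 at 1.12 and 7 days mouse 1 at 1.00.

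The same mice were high for most markers. Mouse 2 at 7 days was among the 2 highest of the 16 mice for 9 of 9 markers and the highest for 8. Mouse 4 at 7 days was among the 2 highest for 6 and the third for 2 (Drd2 and Adora2a), and for Ppp1r1b it came in the sixth place. At 48 h, mouse 2 was the highest of its group for 8 of the 9 markers, Drd1 being the exception, and among all 16 mice it was the second for Drd2 and Adora2a and the third for 4 others. Summed over the 9 genes, the vehicle mice had 350 to 453 CPM and the 24 h mice 271 to 351 CPM. The 48 h mice had 357, 704, 379 and 531 CPM, and the 7 days mice had 704, 1989, 435 and 1464 CPM. Relative to the vehicle mean this sum was 1.80-fold, 5.08-fold, 1.11-fold and 3.74-fold in 7 days mice 1 to 4. Each library of a mouse gave the same picture: the sum in mouse 2 was 5.13-fold from library 1 and 4.98-fold from library 2, and in mouse 4 it was 3.73-fold and 3.70-fold.

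The proportions among the markers differed from mouse to mouse. Taking each gene's excess as its CPM minus the vehicle mean, the excess of 7 days mouse 4 divided by that of mouse 2 was 0.216 for Ppp1r1b, 0.294 for Adora2a and 0.373 for Drd2. It was 0.522 for Penk, 0.582 for Gpr6, 0.627 for Tac1 and 0.664 for Drd1. For Rgs9 it was 0.996 and for Pde10a 1.10. From each library alone the ratio was 0.975 and 1.02 for Rgs9 and 1.06 and 1.12 for Pde10a, above the values of Penk (0.509 and 0.539), Gpr6 (0.554 and 0.603), Tac1 (0.653 and 0.594) and Drd1 (0.717 and 0.606). The libraries disagreed more for Drd2 (0.539 and 0.254), Adora2a (0.170 and 0.521) and Ppp1r1b (0.359 and 0.0615), so the place of these 3 among the rest is uncertain. Rgs9 and Pde10a thus had about equal excess in both mice, and the other 7 markers had less in mouse 4 than in mouse 2. In mouse 1 at 7 days the excess relative to mouse 2 was 0.936 for Ppp1r1b and 0.384 for Drd1, and for Rgs9 (0.100) and Tac1 (0.0551) it was small. In 48 h mouse 2 it was 0.410 for Drd2, 0.383 for Pde10a and 0.284 for Rgs9, and for Drd1 it was -0.0395, so Drd1 was not above the vehicle mean there. The ratios take no account of the spread of the vehicle mice, and some excesses lay within it. That of Ppp1r1b in 7 days mouse 4 was 7.25 CPM, beside a vehicle SD of 13.8 CPM. That of Tac1 in 7 days mouse 1 was 12.4 CPM, beside a vehicle SD of 23.9 CPM.

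**Figure D3:**
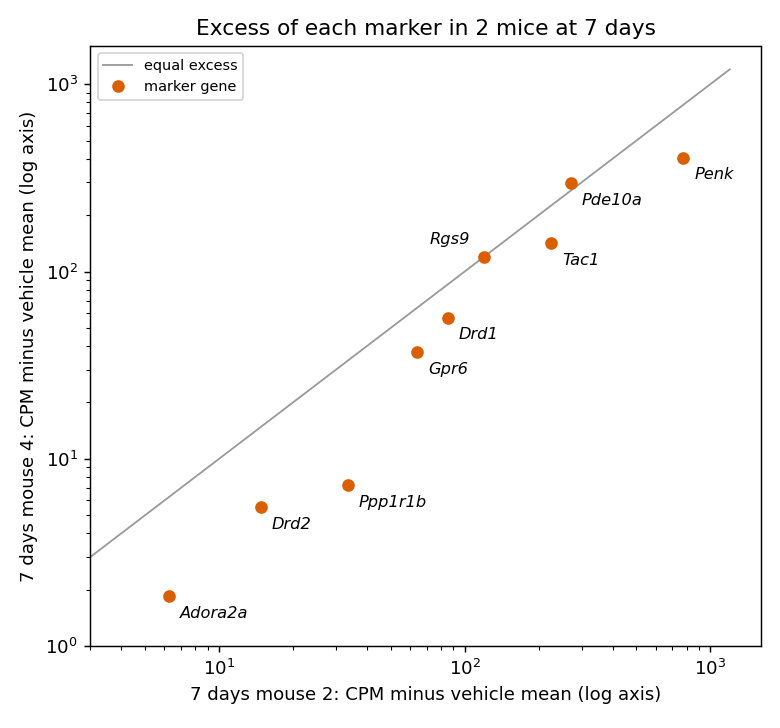
Excess over the vehicle mean, in CPM, of each of the 9 markers in 7 days mouse 2 (x axis, log scale) and 7 days mouse 4 (y axis, log scale), 1 point a gene; the grey line marks equal excess. Rgs9 and Pde10a lie near the line, and Ppp1r1b, Adora2a and Drd2 lie farthest below it, with ratios of 0.216, 0.294 and 0.373.

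Within the vehicle group the markers did not share an order of mice. Penk and Tac1 were highest in mouse 1 (237 and 79.7 CPM) and lowest in mouse 3 (102 and 27.02 CPM). Pde10a had the opposite order, with 144 CPM in mouse 3 and 48.9 CPM in mouse 1, and Rgs9 too was highest in mouse 3. At 24 h Rgs9 was above the vehicle mice in all 4 mice while Drd1 and Ppp1r1b were below them in all 4. Drd1 and Ppp1r1b, the markers that fell at 24 h, were also those with the smallest log2 fold changes at 7 days.

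To set the 9 genes beside other genes of the same neurons, 28 further striatal genes were listed, of which 27 matched a symbol and 24 passed the filter. They were listed with results of these data known. At 24 h 4 of 24 rose and 0 fell, with a median log2 fold change of 0.27. The 4 were Ebf1, a transcription factor of direct-pathway neurons (4.01, SE 1.14, adjusted p = 0.0178), Rasd2, also known as Rhes (1.73, SE 0.61, adjusted p = 0.0462), the kainate receptor gene Grik3 (1.02, SE 0.26, adjusted p = 0.0113), and Ptpn5, the striatal-enriched phosphatase (0.77, SE 0.24, adjusted p = 0.0272). At 48 h 4 of 24 rose and 0 fell, with a median of 0.50: Ebf1 (4.06, SE 1.14, adjusted p = 0.014), Grik3 (1.30, SE 0.26, adjusted p = 0.00277), the sodium channel subunit Scn4b (1.26, SE 0.40, adjusted p = 0.0241) and Ptpn5 (0.84, SE 0.24, adjusted p = 0.0155). Ebf1 is at most 0.0982 CPM in vehicle mice, under the floor of detection, so its fold change depends on the prior count of the fit. Like Drd2, it passed the filter only through the 7 days mice. Outside that group only 24 h mouse 2 (1.49 CPM) and 48 h mouse 2 (2.34 CPM) were past 1.26 CPM, where 4 mice were needed. Its 24 h and 48 h calls therefore rest on a gene kept by the group that led to the choice. The shares called, 4 of 24 higher in each comparison with Ebf1 counted, are near the shares over all genes (13.8% and 16.8%). Leaving out vehicle mouse 1 or 2 reduced the 24 h count to 1, and leaving out vehicle mouse 4 or 24 h mouse 2 reduced it to 2. The 48 h count was 2 without 48 h mouse 2.

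At 7 days 0 of the 24 were called by edgeR, 14 had an unadjusted p below 0.05, as had 16.8% of all genes, and DESeq2 called 8, all higher, where it called 4.44% of all genes. Of the 24, 19 were above 0 and the median was 0.71. The 3 highest log2 fold changes were those of Ebf1 (4.64), Syndig1l (3.28), a synaptic protein gene, and Slc35d3 (2.10), a transporter of direct-pathway neurons. The 3 lowest were those of Pdyn (-0.48), the dynorphin precursor of direct-pathway neurons, Sp9 (-0.31), a transcription factor of indirect-pathway neurons, and Gucy1a1 (-0.30), a guanylate cyclase subunit. Of the highest, Ebf1 and Syndig1l passed the filter only through the 7 days mice. Outside these, Syndig1l was past 1.26 CPM only in 24 h mouse 4 (1.54 CPM) and 48 h mice 2 and 4 (6.19 and 1.86 CPM). Pdyn was at 88.4 to 134 CPM in vehicle mice and at 72.5 and 54.7 CPM in 7 days mice 2 and 4, below all 4 of them, unlike Tac1 and Drd1 of the same pathway. It was below the vehicle mice too in 24 h mice 1, 2 and 4 (34.1, 53.7 and 38.5 CPM) and 48 h mice 1 to 3 (53.6, 43.2 and 66.0 CPM). In 24 h mouse 3 (128 CPM) and 48 h mouse 4 (92.8 CPM) it was not.

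**Figure D4:**
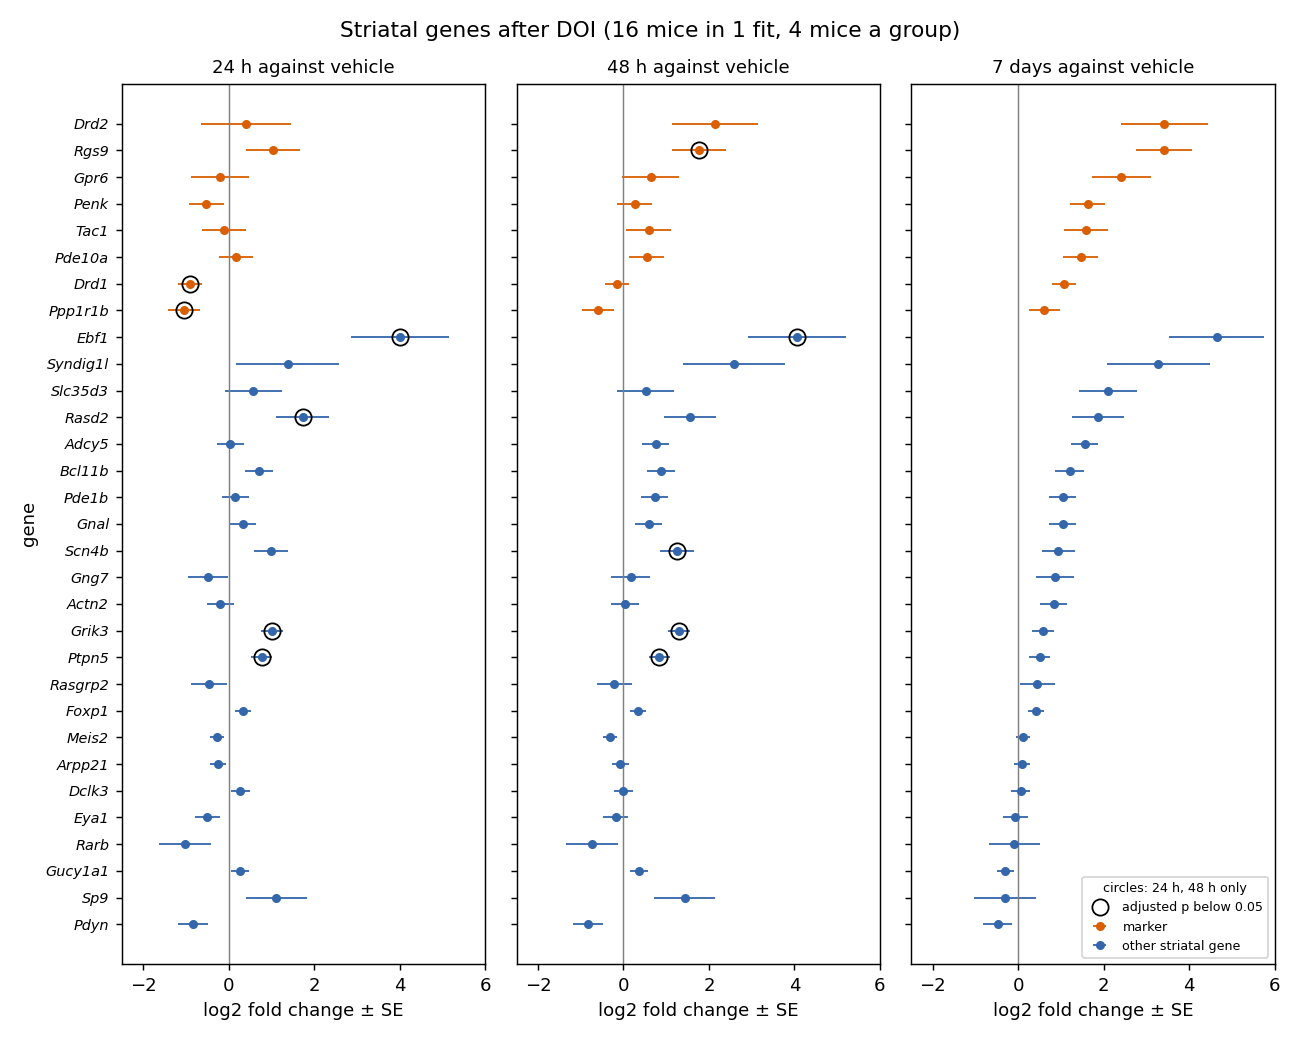
Log2 fold change against vehicle with its SE (x axis) for the 8 tested markers (orange) and the other striatal genes reported by name (blue), at 24 h, 48 h and 7 days (panels), from a fit over all 16 mice. Black circles mark an adjusted p below 0.05 and are drawn at 24 h and 48 h only; all 8 markers lie above 0 at 7 days.

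The counts of genes above all 4 vehicle mice separated single mice within a group. Of the 8 tested markers, 8 were above the highest vehicle mouse in 7 days mouse 2 and 7 were in mouse 4, where the shares of all genes were 36.4% and 37.6%. In 7 days mice 1 and 3 the numbers were 6 and 3, beside 19.9% and 24% of all genes. At 48 h 6 of 8 were above in mouse 2 (38.1% of all genes) and 4 in mouse 4 (34.6%). Mice 1 and 3 at 48 h had 1 and 2 (36.2% and 37.7%). The 24 h mice had 1, 2, 3 and 1 of 8 (38.6%, 34.2%, 32.4% and 37.8% of all genes). The other striatal genes were above in 18 of 24 in 7 days mouse 2 and in 48 h mouse 2, and in 17 of 24 in 7 days mouse 4 and in 48 h mouse 4. In 7 days mice 1 and 3 they were above in 10 and 4 of 24, in 48 h mice 1 and 3 in 11 and 10, and in 24 h mice 1 to 4 in 14, 11, 12 and 11. The markers' counts at 7 days are a description, since the 7 days mice led to the choice of the markers. Drd2, and Ebf1 and Syndig1l of the other striatal genes, passed the filter only through those mice.

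**Figure D5:**
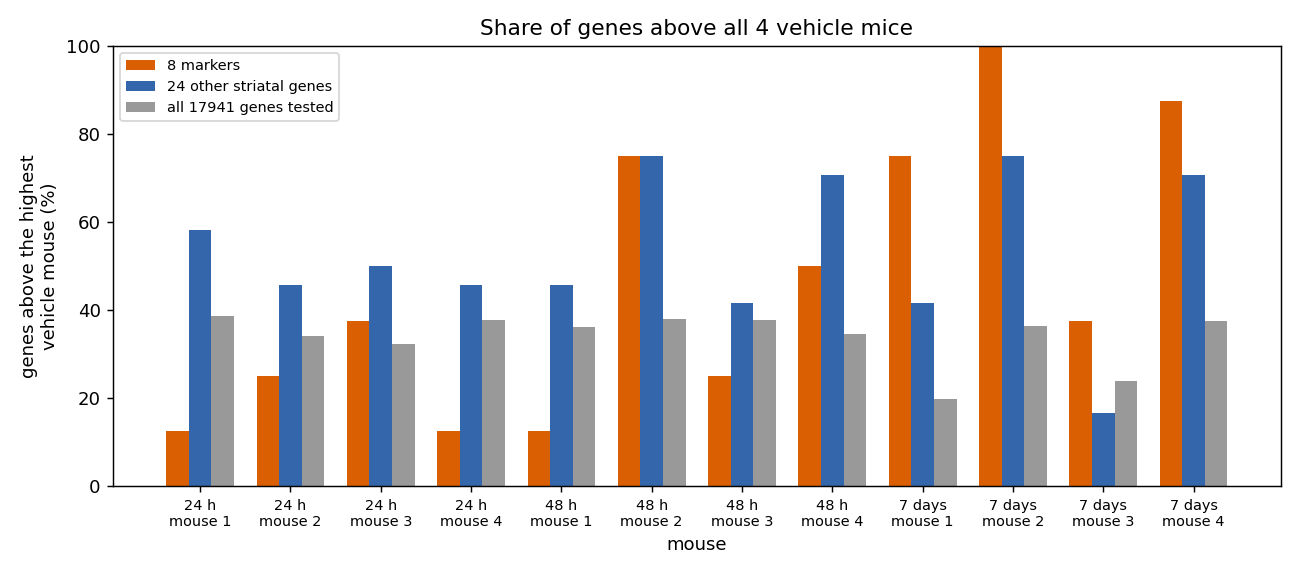
Share of genes (y axis, %) whose log2 CPM was above the highest of the 4 vehicle mice, for the 8 markers, 24 other striatal genes and all 17941 genes tested, in each DOI mouse (x axis). Orange bars reach 100% (8 of 8) in 7 days mouse 2, while the grey bars of mice 2 and 4 at 48 h and 7 days lie at 34.6% to 38.1%. The 7 days mice led to the choice of the markers, so their orange bars are a description.

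Some further genes that are near 0 in vehicle mice were highest in the same mice as Adora2a. Isl1, a direct-pathway transcription factor, was at most 0.341 CPM in vehicle mice, at 1.51 CPM in 48 h mouse 2 and at 4.71 and 1.54 CPM in 7 days mice 2 and 4. Six3, a transcription factor of indirect-pathway neurons, was at 0 in the vehicle and 24 h mice. It was at 1.00 CPM in 48 h mouse 2 and at 1.01 and 1.12 CPM in 7 days mice 2 and 4. Syndig1l was at 0 to 0.491 CPM in vehicle mice, at 6.19 CPM in 48 h mouse 2 and at 6.72 and 6.02 CPM in 7 days mice 2 and 4. The D3 dopamine receptor gene Drd3 was high in 7 days mice 2 and 4 alone, at 1.12 and 1.40 CPM. It was at most 0.117 CPM in the other 14 mice and, unlike Adora2a, at 0 in 48 h mouse 2. Lower levels appeared elsewhere: Isl1 was at 0.762 CPM in 7 days mouse 1, Six3 at 0.665 CPM in 48 h mouse 4, and Syndig1l at 1.86 CPM in 48 h mouse 4 and 1.54 CPM in 24 h mouse 4. Other low genes of the list had another pattern. Ebf1 was at 2.34 CPM in 48 h mouse 2, but also at 0.380 to 1.49 CPM in the 24 h mice. It was at 2.29 CPM in 7 days mouse 1, beside 2.58 and 1.54 CPM in 7 days mice 2 and 4. Sp9 was at 1.01 and 0.560 CPM in 7 days mice 2 and 4, within the 0.0944 to 1.25 CPM of vehicle mice. The muscarinic receptor gene Chrm4, at 0.197 to 1.02 CPM in vehicle mice, was at 0.560 and 0.840 CPM in those 2. These genes were singled out after their values were seen.

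The 10 genes outside the markers whose log2 CPM followed the markers' mean most closely over the 16 mice were sought among the 12787 genes whose mean log2 CPM was 2 or more. Those reported are Adcy5 (r = 0.901), Traip (0.862), Tmem163 (0.852), Pde1b (0.845), Rxrg (0.834), Zfp618 (0.833), Gm38413 (0.824), Gnal (0.808) and Desi1 (0.784). Of the 10, 4 stand on the list of other striatal genes, among them the adenylate cyclase Adcy5, the phosphodiesterase Pde1b and the G protein subunit Gnal. In all 19 of the listed genes were among those compared, and 8 of them were among the 100 closest. Adcy5 was at 36.9 to 52.7 CPM in vehicle mice and at 84.5, 228, 61.2 and 160 CPM in 7 days mice 1 to 4. With 7 days mice 2 and 4 left out, r was 0.69 for Adcy5, 0.621 for Pde1b and 0.428 for Gnal. Genes outside the striatal list lay in the same range or above it. Their r was 0.737 for Zfp618, 0.69 for Tmem163, 0.644 for Rxrg, 0.602 for Traip, 0.587 for Gm38413 and 0.49 for Desi1. Over all 16 mice, Grik3 (0.042) and Pdyn (0.023) did not follow the markers. The mice share group, depth and library preparation, and these values are a measure of likeness.

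Of the receptors and cAMP pathway partners of the markers, 21 were listed and 19 tested. At 24 h 1 of 19 rose and 3 fell, with a median of -0.12, where 13.8% of all genes rose and 10.4% fell. Oprm1, the mu opioid receptor, rose (1.54, SE 0.44, adjusted p = 0.0192), and Oprd1, the delta opioid receptor on which enkephalin acts, fell by 2.43 (SE 0.54, adjusted p = 0.00557). Drd5, the other receptor of the D1 class, fell by 1.61 (SE 0.58, adjusted p = 0.0484), as did Prkar2b, a regulatory subunit of protein kinase A, by 0.81 (SE 0.21, adjusted p = 0.0132). At 48 h 3 rose and 2 fell, beside 16.8% and 13.3% of all genes. Oprm1 (1.99, SE 0.45, adjusted p = 0.00481), the catalytic subunit Prkaca (0.96, SE 0.35, adjusted p = 0.0453) and the coactivator Crebbp (0.55, SE 0.17, adjusted p = 0.0259) rose. Oprd1 fell by 2.18 (SE 0.53, adjusted p = 0.00711) and Prkar2b by 0.74 (SE 0.21, adjusted p = 0.0164). At 7 days 0 of 19 were called and the median was 0.06.

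Markers of other cell types also differed in the mice that were high. The summed level of 10 cortical glutamatergic markers was 481 to 538 CPM in vehicle mice and 373 and 422 CPM in 7 days mice 2 and 4. Slc17a7 was at 52.4 and 60.0 CPM in those 2 mice, and Rxfp1, the other of the 2 most abundant, at 83.3 and 101 CPM against 108 to 122 CPM in vehicle. The genes of the list did not differ in 1 direction: in 7 days mouse 2, 4 of the 10 were above all vehicle mice and 4 below them, and in mouse 4 the numbers were 3 and 4. Tbr1 (57.7 and 73.9 CPM, against 38.2 to 49.0 CPM in vehicle), Neurod2 (26.1 and 25.9 CPM, against 16.5 to 21.3 CPM) and Cux2 (18.0 and 30.6 CPM, against 8.40 to 13.2 CPM) were above in both mice. These genes were also above the vehicle mice in every mouse at 24 h and 48 h. Tbr1 was at 59.2 to 120.5 CPM at 24 h and 57.4 to 88.6 CPM at 48 h. Neurod2 was at 23.8 to 45.1 and 23.1 to 31.1 CPM, and Cux2 at 22.7 to 39.1 and 18.4 to 41.4 CPM. At 24 h Slc17a7 was at 57.7 to 110 CPM, so it was also low in mice whose markers were not high. The 8 cortical interneuron genes summed to 1646 to 3428 CPM in vehicle mice, to 4465 and 3769 CPM in 7 days mice 2 and 4, and to 2406 to 4294 CPM at 24 h. Of the 8, 5 were above all vehicle mice and 2 below them in 7 days mouse 2, and 4 and 1 in mouse 4, with Pvalb below in both (21.5 and 17.6 CPM, against 22.2 to 38.5 CPM in vehicle). The abundant Sst (1248 and 983 CPM, against 333 to 934 CPM) and Cck (1301 and 968 CPM, against 378 to 761 CPM) were above in both. At 24 h Sst was at 430 to 1137 CPM and Cck at 608 to 1469 CPM. The 3 genes of all GABA neurons, those of the striatum included, went different ways. Slc32a1, the vesicular GABA transporter, was at 11.8 and 6.44 CPM in 7 days mice 2 and 4, above the 3.54 to 4.63 CPM of vehicle mice, and at 6.87 to 10.0 CPM at 24 h. Gad1 and Gad2, the enzymes that make GABA, were below all vehicle mice in both. Gad1, Gad2 and Slc32a1 summed to 620 and 618 CPM in 7 days mice 2 and 4, below the 749 to 1014 CPM of vehicle mice, and to 405 CPM in 48 h mouse 2. Mice whose markers were not high had low sums too, with 434 to 646 CPM at 24 h and 583 CPM in 7 days mouse 3. The part of these differences in the marker levels was not tested.

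Of the remaining lists, the cholinergic marker Chat was at most 0.682 CPM in every vehicle mouse and at 0.336 and 0.420 CPM in 7 days mice 2 and 4, and the list summed to 1.08 to 2.82 CPM in vehicle mice and to 2.69 and 10.5 CPM in those mice. Of the 10.5 CPM in mouse 4, the choline transporter gene Slc5a7 made up 10.1 CPM, and Slc18a3 was at 0. The olfactory bulb list summed to 15.9 to 20.8 CPM in vehicle mice and to 42.7 and 28.4 CPM in 7 days mice 2 and 4. Of its 5 genes, 2 were above all vehicle mice in each, with Doc2g (21.9 and 18.3 CPM, against 2.36 to 8.07 CPM) above in both. Eomes and Tbx21 were at 0 in both. Doc2g was above the vehicle mice in every mouse at 24 h (9.76 to 18.0 CPM) and 48 h (8.11 to 19.9 CPM) too. The list summed to 24.3 to 42.7 CPM at 24 h as well, with 13 counts of Eomes and 5 of Tbx21 in 24 h mouse 2, and to 40.2 and 35.2 CPM in 48 h mice 2 and 4. Astrocyte genes summed to 119 to 157 CPM in vehicle mice and to 89.9 and 62.8 CPM in those 2, microglial genes to 68.6 to 106 CPM and to 54.4 and 49.0 CPM, and oligodendrocyte genes to 148 to 325 CPM and to 220 and 195 CPM. At 24 h the astrocyte sum was 81.7 to 189 CPM and the microglial sum 40.0 to 83.8 CPM, and in 7 days mouse 1 they were 189 and 121 CPM, above the vehicle mice. Endothelial genes summed to at most 0.910 CPM in vehicle mice and to 2.02 and 0 CPM in those 2. Across the pan-neuronal genes Rbfox3, Snap25, Syt1, Tubb3 and Stmn2, which sum to 5610 to 5814 CPM in vehicle mice, 7 days mice 2 and 4 had 5551 and 4710 CPM. Snap25, the most abundant, was below all vehicle mice in both (2913 and 2496 CPM, against 3717 to 4334 CPM), while 3 of the 5, Rbfox3, Syt1 and Stmn2, were above them in both. Every mouse at 24 h and 48 h was also below vehicle for Snap25 (2278 to 3547 and 2043 to 3169 CPM). Rbfox3 (88.4 to 115 and 83.9 to 109 CPM) and Stmn2 (523 to 795 and 490 to 618 CPM) were above vehicle in all of them. Syt1 overlapped the vehicle mice there.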

How the data were processed

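RNA-seq of sorted neuronal nuclei from 16 mice in 4 groups was analysed, with 2 libraries per mouse. Per the labels, SMART-seq2 cDNA was turned into libraries by Nextera XT tagmentation. The deposited files hold unnormalized whole-number counts for each gene. Per the file headers, featureCounts v2.0.0 was run over exons grouped by gene ID of a GRCm38 annotation, with strand, multi-mapping and overlap options at their defaults. The aligner of the RNA reads is not given in the sources used here. Libraries held 2763704 to 7436451 counts. The libraries of a mouse differed by more than sampling noise (chi-square over degrees of freedom 1.39 to 2.90).

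The 2 libraries of each mouse were added together. Genes were filtered with filterByExpr, scaled with TMM factors and tested with edgeR's quasi-likelihood test (edgeR 4.0.16, limma 3.58.1, R 4.3.3), in a single fit of all 16 mice over the 4 groups, with Benjamini-Hochberg adjustment over 17941 genes and a threshold of 0.05. Unless another tool is named, each adjusted p is from that test. SEs are the log2 fold change over the square root of F, and log2 CPM used a prior count of 2. The fit was tested on simulated data. Gene IDs were matched to symbols for 55141 of 55401. Alternatives were DESeq2 1.42.0, other scaling, other filters, each library alone, thinned counts, the mouse number as a block and each mouse left out. Leaving out 7 days mice 2 and 4 together was chosen after seeing the data.

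The members and the gene lists were chosen with earlier results of these data known. Named were all 9 markers. From the other striatal genes and the receptors and cAMP pathway partners, genes past the threshold were named, with the 3 highest and 3 lowest other striatal genes at 7 days. Of the cell type lists only some genes were named, not every abundant one and not every one past the threshold. Besides genes said to be singled out, 9 of the 10 genes most like the markers were also named. The lists of glial, endothelial, cholinergic and olfactory bulb genes are given by their sums and some of their genes. The other one of these 10, a gene of the striatal list, enters the counts and is not reported here by name.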

Additional observations from a re-analysis of the deposited data

Results flagged for a closer look

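For Adora2a, 1 mouse stood apart from the rest of its group in 2 groups: vehicle mouse 2 with 4 counts and 24 h mouse 4 with 5 counts, where the others had 0 (the gap to the next mouse over the whole range was 1.0 in both, above Dixon's 95% critical value for 4 mice). With the others at 0 this ratio is 1.0 whatever the remaining value is, so it says nothing about 4 or 5 counts. Of 40 sets of 4 mice examined, counting the 9 markers and their sum in each group, these 2 passed, and chance passes about 1 in 20.

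Drd1, Ppp1r1b and Penk lay on opposite sides of the vehicle mean at 24 h and 7 days in every mouse, in CPM. Drd1 was at 14.1 to 29.0 CPM at 24 h and at 42.1 to 126 CPM at 7 days, around a vehicle mean of 40.5 CPM, and its mean was 63.1 CPM higher at 7 days. Ppp1r1b was at 14.3 to 25.4 CPM and at 46.3 to 72.6 CPM around 39.1 CPM, a difference of means of 40.5 CPM. Penk was at 67.9 to 160.5 CPM and at 185.6 to 941.2 CPM around 164.0 CPM, a difference of means of 393.1 CPM. For Penk this depends on the scale: in log2 CPM, 24 h mouse 3 was 0.04 above the vehicle mean. The log2 differences between 7 days and 24 h in the fit were 1.97 for Drd1, 1.65 for Ppp1r1b and 2.15 for Penk. They are a description, and their p-values are not used, since the 7 days mice led to the choice of the genes.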

How the results depend on the processing

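With a block for the mouse number, 1 marker in place of 2 was called at 24 h and 0 in place of 1 at 48 h. Same-numbered mice are separate animals, whose deviations from their group means correlated at -0.28 to 0.24 over 24 pairs (mean -0.04). By the numbers in the file headers they correlated at -0.28 to 0.24 over 19 pairs (mean 0.02), and at 0.12 to 0.18 over the 3 pairs of number 6. Not every pair was above 0.1 by either numbering, so no pairing was assumed. A block by header number was not run. At 24 h the markers called were 1 with RLE factors, 0 with total counts only and 1 with library 2 alone, and 0 to 1 with a mouse left out. With no filter, and with 7 days mice 2 and 4 left out, Rgs9 was called higher at 24 h, which it was not in the main analysis. At 48 h they were 2 with no filter and 0 with library 1 alone, and 0 to 2 with a mouse left out. The other striatal genes called at 24 h, 4 in the main analysis, were 2 with library 1 alone, 7 with 7 days mice 2 and 4 left out (where 32.7% of all genes were called), and 1 to 4 with a mouse left out. At 48 h, again 4 in the main analysis, they were 10 with no filter (15.5% of all genes), 10 with 7 days mice 2 and 4 left out (37.1%), and 2 to 6 with a mouse left out. At 7 days they were 0, but 8 by DESeq2 (4.44% of all genes), 9 with no filter (2.62%), and 0 to 9 with a mouse left out: 7 without 7 days mouse 1 (7.26%) and 9 without 7 days mouse 3 (6.28%). The causes were not tested. Between 48 h and 24 h 0 markers were called under each alternative run. The markers' median log2 fold change at 7 days was 1.18 to 2.00 with a mouse left out, 1.40 with the block and 0.64 without mice 2 and 4. Log2 fold changes that were no calls turned sign for Tac1 at 24 h (0.02 with total counts only), Gpr6 at 24 h (0.09 with the block) and Drd1 at 48 h (0.01 with library 2 alone). With a mouse left out, those at 24 h ran from -0.04 to 0.79 for Drd2, -0.37 to 0.28 for Tac1, -0.03 to 0.52 for Pde10a and -0.64 to 0.06 for Gpr6, and that of Gpr6 at 48 h from -0.01 to 0.98. Depth limits Adora2a, with 5 counts or fewer in 13 of 16 mice, and Drd2, with 10 counts or fewer in 10 of 16.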
